A study of Drosophila melanogaster with 3 samples.

Results

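The bithorax complex holds the Hox genes Ubx, abd-A and Abd-B, and 26 of the 5746 reproducible binding peaks of the transcription factor Gooseberry-neuro (Gsb-n) fell in it. Chromatin immunoprecipitation followed by sequencing, which recovers the DNA bound by a protein, had been carried out on whole Drosophila melanogaster embryos collected between 4 and 14 hours of age. All embryos came from 1 transgenic line carrying gsb-n with green fluorescent protein fused to its C terminus, and the antibody was directed against the fluorescent protein. The 3 samples are biological replicates of this single group, and no control sample was analysed here, although 1 control file entered the authors' peak calling. Whole embryos mix all tissues, so a peak does not say which cells held the protein. A peak was counted for the complex when its summit, the position of highest signal, was nearest to a protein-coding transcription start site (TSS) of Ubx, abd-A or Abd-B, lay inside 1 of these genes, or lay between them. This stretch runs over chr3R:16656623-16973720 of the dm6 assembly, 317.1 kb in all.

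Hox genes encode homeodomain proteins that give the segments of the body axis their identity. The 3 genes of the bithorax complex do so in the posterior thorax and the abdomen: Ubx in the hindmost thorax and the front of the abdomen, abd-A in the abdominal segments and Abd-B in the most posterior ones. Their start sites are served by long stretches of regulatory DNA between and inside the genes, where enhancers, boundary elements and Polycomb response elements divide the complex into segment-specific domains. Polycomb response elements recruit the silencing proteins of the Polycomb group, and many carry sites for Pho and for GAGA factor, the product of Trl. Gsb-n is a Pax protein with a paired domain and a homeodomain, known from the embryonic central nervous system. The annotation used here marks genes and transposons but no regulatory element, so no peak was assigned to one.

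Ubx (FBgn0003944, chr3R:16656623-16734426) has 1 annotated start site, abd-A (FBgn0000014, chr3R:16807214-16830049) has 3 and Abd-B (FBgn0000015, chr3R:16927212-16972236) has 6. All 3 genes lie on the minus strand, so their start sites are at the higher coordinate and transcription runs towards lower ones. The sequences at 8 of the 26 summits, each a window reaching 100 bp to either side of the summit, show what kind of DNA was recovered. They are the strongest peak of each segment of the complex, the windows with the most matches to the GAGA and to the Pho core, and the window nearest to any annotated start site. Capitals mark matches, on either strand, to the homeodomain core TAATTA, to a pair of short homeodomain sites in opposite directions spaced by 2 bases (TAATNNATTA), to the GAGA core GAGAG or to the Pho core GCCAT.
Ubx body, strongest, chr3R:16661788-16661988, plus strand: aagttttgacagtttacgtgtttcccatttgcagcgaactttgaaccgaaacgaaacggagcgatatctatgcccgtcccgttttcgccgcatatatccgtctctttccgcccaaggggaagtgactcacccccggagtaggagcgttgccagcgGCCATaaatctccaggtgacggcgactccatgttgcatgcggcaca
Ubx to abd-A interval, most GAGA matches, chr3R:16764094-16764294, plus strand: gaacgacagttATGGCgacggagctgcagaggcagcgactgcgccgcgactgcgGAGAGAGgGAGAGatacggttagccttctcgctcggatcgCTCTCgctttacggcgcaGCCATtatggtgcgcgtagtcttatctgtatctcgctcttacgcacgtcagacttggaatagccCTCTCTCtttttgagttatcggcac
Ubx to abd-A interval, strongest, chr3R:16771698-16771898, plus strand: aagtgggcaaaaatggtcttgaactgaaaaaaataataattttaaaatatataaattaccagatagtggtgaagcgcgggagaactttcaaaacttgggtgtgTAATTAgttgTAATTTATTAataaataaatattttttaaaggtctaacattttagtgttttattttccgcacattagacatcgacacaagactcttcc
Ubx to abd-A interval, nearest to a start site of any gene, chr3R:16783374-16783574, plus strand: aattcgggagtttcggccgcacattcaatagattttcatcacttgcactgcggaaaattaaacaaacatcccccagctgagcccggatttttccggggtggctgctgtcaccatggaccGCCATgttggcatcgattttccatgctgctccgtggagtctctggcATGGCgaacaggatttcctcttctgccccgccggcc
abd-A body, most Pho matches, chr3R:16811770-16811970, plus strand: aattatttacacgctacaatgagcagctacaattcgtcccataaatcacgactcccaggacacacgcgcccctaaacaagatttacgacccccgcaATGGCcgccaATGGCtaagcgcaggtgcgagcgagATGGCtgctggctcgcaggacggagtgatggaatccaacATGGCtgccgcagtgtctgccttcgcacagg
abd-A body, strongest, chr3R:16819484-16819684, plus strand: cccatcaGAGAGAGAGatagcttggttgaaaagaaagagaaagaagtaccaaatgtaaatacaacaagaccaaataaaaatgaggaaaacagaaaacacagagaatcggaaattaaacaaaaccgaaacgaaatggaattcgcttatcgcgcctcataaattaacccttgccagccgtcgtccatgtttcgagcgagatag
abd-A to Abd-B interval, strongest, chr3R:16869335-16869535, plus strand: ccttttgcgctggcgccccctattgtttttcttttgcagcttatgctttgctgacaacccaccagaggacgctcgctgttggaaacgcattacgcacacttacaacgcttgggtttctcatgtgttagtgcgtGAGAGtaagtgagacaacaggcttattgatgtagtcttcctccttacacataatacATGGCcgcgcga
Abd-B body, strongest, chr3R:16958144-16958344, plus strand: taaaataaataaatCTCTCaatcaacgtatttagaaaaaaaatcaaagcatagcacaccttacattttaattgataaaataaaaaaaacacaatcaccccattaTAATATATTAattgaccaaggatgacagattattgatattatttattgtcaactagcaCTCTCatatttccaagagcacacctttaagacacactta

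The windows differed in base composition as well as in matches. The strongest windows of the Abd-B body and of the Ubx to abd-A interval were rich in A and T, with 26.4% and 28.9% G or C, and both held the spaced pair, with its first base 4 bp and 13 bp beyond the summit. The window with the most GAGA matches had 6 of them, 2 Pho matches and 56.2% G or C. The abd-A window with the most Pho matches had 4 of them and 55.7% G or C. A match to so short a word is a description of the sequence and not a measured binding site.

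The 3 replicates each had a deposited list of 30000 peaks, a pooled list held 30000, and the list kept at an irreproducible discovery rate (IDR), a measure of how steadily replicates rank a peak, held 5746. The complex held 131, 137 and 116 peaks of the replicate lists 1, 2 and 3, 142 peaks of the pooled list and 26 of the IDR list. Signal is the authors' peak height, whose scale differs between lists, so peaks were compared by rank, with 1 the strongest, and each replicate was read through its 5746 strongest peaks, called top peaks below. The depth of the libraries is unknown because the lists give no read counts.

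Each of the 3 genes had at least 1 IDR peak nearest to one of its start sites, as had 22.6% of all 13945 protein-coding genes. Each also had at least 1 pooled peak, against 45.9% of all genes. With 4 IDR peaks nearest to Abd-B and 7 nearest to abd-A, 2 of the 3 genes had at least 4 IDR peaks, against 2.54% of all genes. The genes stand in large territories, the stretch of genome nearer to their start sites than to any other coding gene's, of 47.8 kb for Ubx, 55.0 kb for abd-A and 58.5 kb for Abd-B, against a median of 4.33 kb over all genes. Per 100 kb of territory there were 4.18 IDR peaks at Ubx, 12.7 at abd-A and 6.84 at Abd-B, against 4.34 over all genes. Relative to its territory Ubx was therefore close to the average gene and abd-A was above it.

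The order of the genes by count of nearest IDR peaks was abd-A, Abd-B, Ubx, whereas by gene body each of the 3 held 3 IDR peaks. The top peaks of replicates 1, 2 and 3 gave abd-A 6, 8 and 7 peaks, Abd-B 4, 2 and 4, and Ubx 2, 2 and 2. The range of abd-A lay above those of Abd-B and Ubx, while Abd-B and Ubx met at 2 peaks in replicate 2. In the full lists of replicates 1 and 2, but not of replicate 3, the order below abd-A changed. Over the 3 full lists abd-A had 35, 34 and 28 peaks, Abd-B had 14, 14 and 16, and Ubx had 17, 15 and 10. The genes nearest to each by peak counts in the 5 lists and territory length, measured as Euclidean distance over these 6 log-scaled values, were stumps (0.33), blot (0.36) and Pde11 (0.40) for Ubx. For abd-A they were chinmo (0.19), Hr4 (0.26) and Ten-m (0.28), and for Abd-B grn (0.28), Nost (0.41) and Fhos (0.44).

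Nearest start sites described this locus only in part. Of the 26 IDR peaks, 13 were nearest to a start site of Ubx, abd-A or Abd-B, and the other 13 were nearest to one of 4 other coding genes in or beside the complex. These were Glut3 with 5 peaks, CG31275 with 4, MSAmiP with 3 and modSP with 1. The modSP peak lay inside Ubx, far from the Ubx start site but 6.23 kb from that of modSP. The peaks of CG31275 and Glut3 all lay in the interval between Ubx and abd-A. Describing the complex by position avoids this division, and the following paragraphs do so from the 3′ end of Ubx towards the start of Abd-B.

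**Figure D1:**
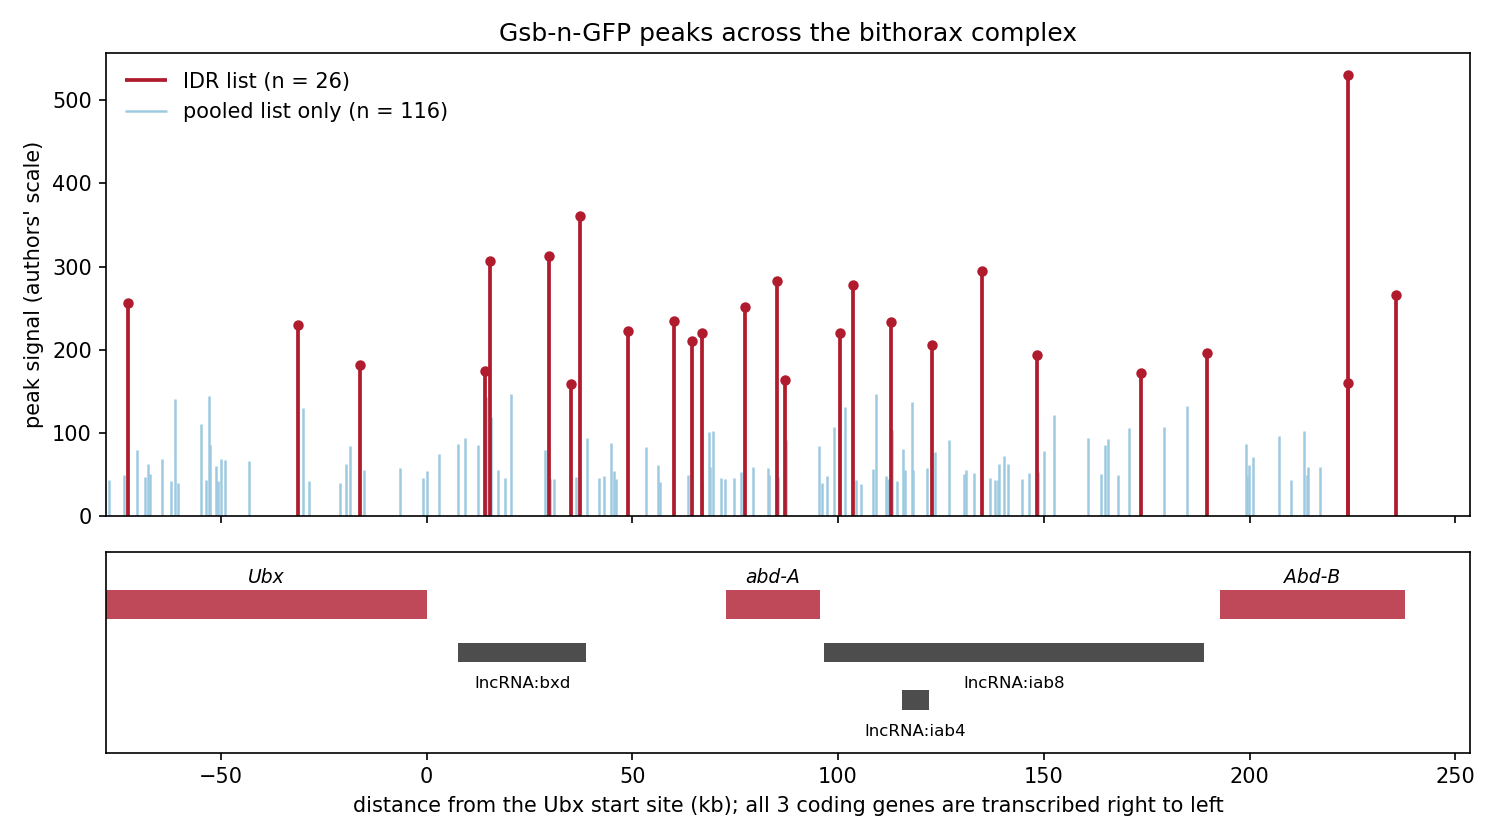
Peak signal (authors' scale) against distance from the Ubx start site in kb, for the 26 IDR peaks (red, dots) and the 116 pooled peaks outside the IDR list (blue); the lower panel draws the 3 Hox genes and 3 long non-coding RNA genes to scale. The strongest IDR peak, 530.1, stands inside Abd-B, and a stretch of 41.2 kb inside Ubx holds no IDR peak.

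Peaks were spread unevenly over the segments. The Ubx body, 77.8 kb long, held 3 IDR peaks, and its top peaks numbered 3, 2 and 4 in replicates 1, 2 and 3. The interval between Ubx and abd-A, 72.8 kb, held 9 IDR peaks and 7, 10 and 6 top peaks. The abd-A body, 22.8 kb, held 3 IDR peaks and 2, 3 and 2 top peaks. These counts gave an IDR density of 3.86 per 100 kb in the Ubx body, against 12.4 in the adjoining interval and 13.1 in the abd-A body. The interval between abd-A and Abd-B, 97.2 kb, held 8 IDR peaks and 8 top peaks in each replicate. The Abd-B body, 45.0 kb, held 3 IDR peaks and 3, 2 and 2 top peaks. Their IDR densities were 8.23 and 6.66 per 100 kb, and no IDR peak lay beyond the most distal Abd-B start site.

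The 6 chromosome arms averaged 4.29 IDR peaks per 100 kb. The complex as a whole held 8.20, or 1.91 times that, and the ratio over the replicates' top peaks was 1.71 ± 0.112 (SD, n = 3). By segment the ratio was 0.898 in the Ubx body, 2.88 between Ubx and abd-A, 3.06 in abd-A, 1.92 between abd-A and Abd-B and 1.55 in Abd-B. The Ubx body thus stood at the density of the arms in the IDR list, and its top peaks gave 0.898 ± 0.299 times the arms (SD, n = 3). In the pooled list, which reaches weaker peaks, the same body held 30 peaks, or 1.72 times the arms, and the complex 2.00 times. Of those 30 pooled peaks 3 were in the IDR list, while IDR peaks made up 18.3% of the pooled peaks of the complex and 19.2% of those of the arms.

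**Figure D2:**
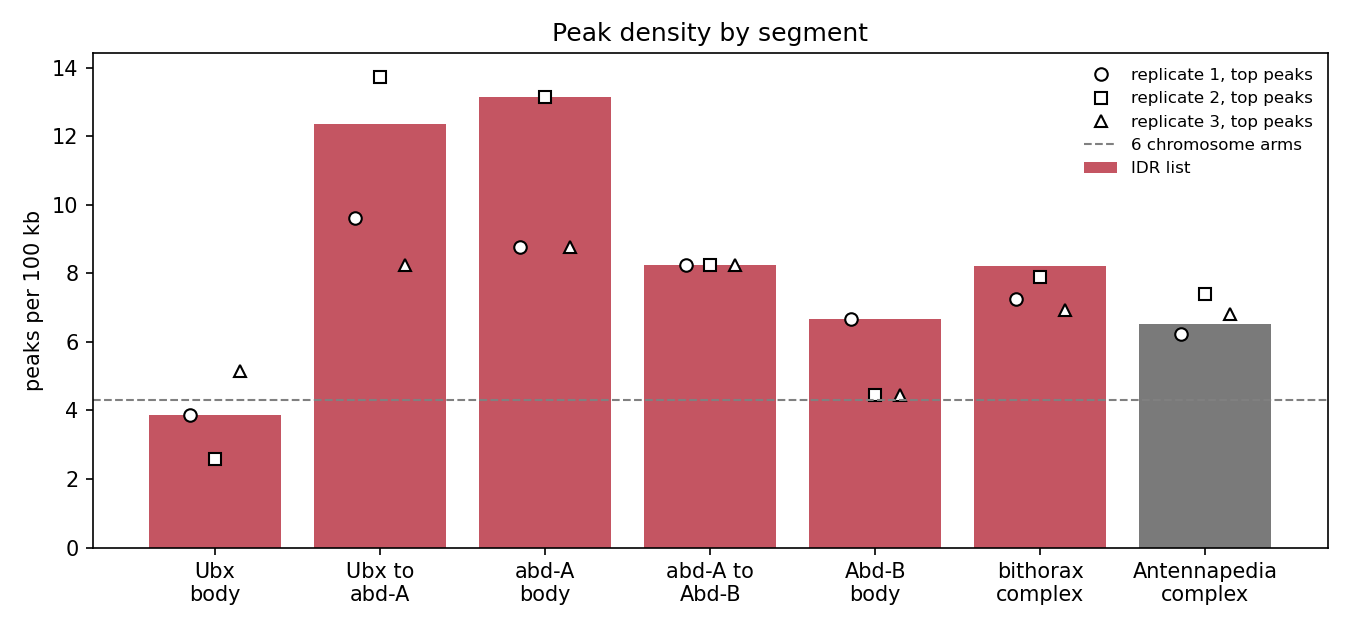
Peaks per 100 kb in each segment, in the whole bithorax complex (red bars, IDR list) and in the Antennapedia complex (grey bar), with the top peaks of each replicate as open symbols and the average of the 6 arms as a dashed line. The Ubx body lies near the line at 3.86, and the abd-A body is highest at 13.1.

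The Antennapedia complex, the other Hox cluster of the fly with lab, pb, Dfd, Scr and Antp, gives a scale for these values. Across the 337.8 kb between its outer gene ends it held 22 IDR peaks, 6.51 per 100 kb or 1.52 times the arms. Between its own outer gene ends the bithorax complex held 8.24 per 100 kb. The rule used for the bithorax complex gives the Antennapedia complex 24 IDR peaks, the set used for its IDR shares below. For its densities and its share of top peaks at a start site, peaks between its outer gene ends were used. Densities of the bithorax complex below use its 317.1 kb, and its top peak counts are the same between its outer gene ends. In replicates 1, 2 and 3 the density of top peaks was 7.25, 7.88 and 6.94 per 100 kb in the bithorax complex, against 6.22, 7.40 and 6.81 in the Antennapedia complex. The bithorax complex was higher in 3 of 3 replicates, by 0.550 ± 0.457 per 100 kb (SD, n = 3; exact two-sided paired permutation test, p = 0.25, adjusted p = 0.25). The order was the other way in the pooled list, which held 44.8 peaks per 100 kb in the bithorax complex, against 46.8 in the Antennapedia complex (2.00 and 2.09 times the arms). The rest of the arms had 4.28, 4.28 and 4.29 top peaks per 100 kb. All top lists have the same length, so this density was nearly fixed by the cut and could not vary between replicates. The bithorax complex exceeded it by 3.07 ± 0.483 (SD, n = 3, the same exact permutation test, p = 0.25, adjusted p = 0.25). The spread of that difference comes almost wholly from the complex. With 3 replicates 0.25 is the smallest p this test can give, so no difference could pass 0.05, and the adjustment covers the 6 comparisons of this kind made here.

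No IDR peak of the complex lay at a protein-coding start site. Of the 26 summits, 0 were within 500 bp of a protein-coding TSS, which allows a share of up to 11.5% by a floor of 3 counts and has an exact 95% upper limit of 13.2%, against 35.3% of all IDR peaks and 16.7% (4 of 24) of the peaks that the same rule gives the Antennapedia complex. Of those 4 Antennapedia complex peaks 1 was at a Dfd start site and 1 at a Scr start site. The rest were at start sites of coding genes other than its 5 Hox genes. In the bithorax complex the nearest summit to any coding start site was 1.43 kb away, at an Abd-B start. The farthest was 31.3 kb away, inside Ubx. The median distance was 10.3 kb in the complex, against 1.56 kb over all IDR peaks. Beyond 10 kb lay 14 of the 26 peaks (53.8%), against 14.8% of all. Coding start sites are sparse here, with territories of 47.8 kb for Ubx to 58.5 kb for Abd-B, against a median of 4.33 kb. The part of this spacing in the distances was not tested.

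**Figure D3:**
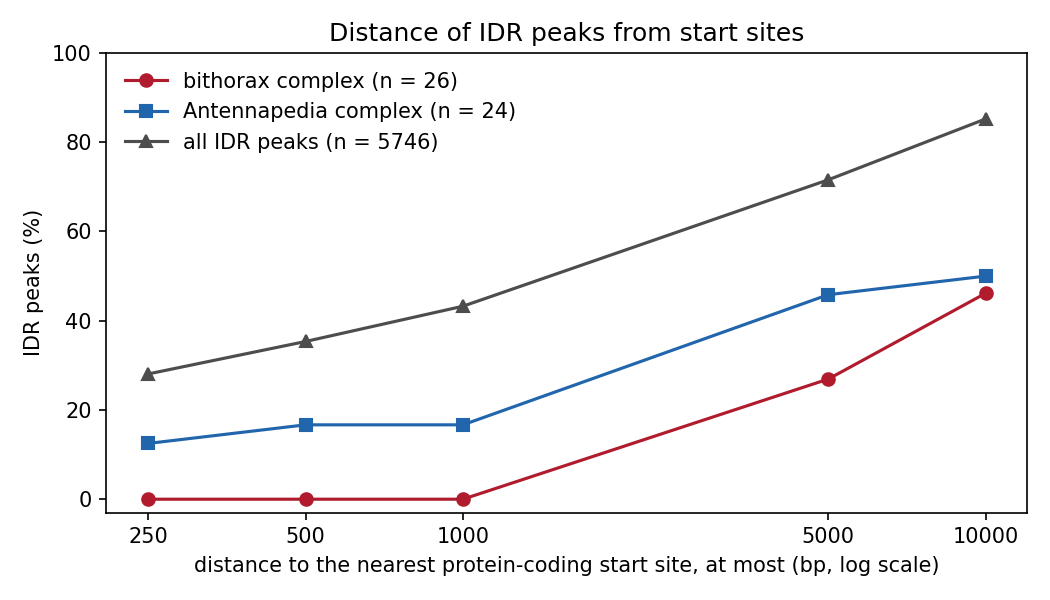
Share of IDR peaks (%) within a given distance of a protein-coding start site (bp, log axis) for the bithorax complex (26 peaks), the Antennapedia complex (24) and all 5746 IDR peaks. The bithorax curve stays at 0 up to 1000 bp and reaches 46.2% at 10000 bp, where all IDR peaks reach 85.2%.

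Among top peaks the share at a start site was 0, 4.00 and 0% in replicates 1, 2 and 3 of the bithorax complex, against 9.52, 16.0 and 17.4% in the Antennapedia complex. The mean difference was -13.0 ± 4.02 percentage points (SD, n = 3), lower in 3 of 3 replicates (exact two-sided paired permutation test, p = 0.25, adjusted p = 0.25). The rest of the arms had 36.2, 35.8 and 42.7%, a mean difference of -36.9 ± 5.50 points (SD, n = 3; the same exact permutation test, p = 0.25, adjusted p = 0.25). The 1 top peak at a start site was that of Ubx in replicate 2, 86 bp from the site and at rank 5724, near the end of the top list. Replicates 1 and 3 had no peak within 500 bp of the Ubx start site in their full lists. Their nearest summits were just beyond that limit, at 550 and 760 bp. The pooled list had 1 peak within 500 bp of the site, at rank 21289.

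Weaker peaks did reach start sites of the other Hox genes. Near the abd-A start at chr3R:16829752 all 3 replicates had a peak within 500 bp, at ranks 14818, 8191 and 26067, and the pooled peak stood at rank 12873. Near the Abd-B start at chr3R:16934242 replicate 2 had a peak at rank 12563 and replicate 3 at rank 11744, while replicate 1 had none. Replicate 3 also had a peak 12 bp from the Abd-B start at chr3R:16960281, at rank 23124. None of these was in the IDR list. Over the pooled list 7 of 142 peaks of the complex (4.93%) were at a coding start site, against 21.1% of all pooled peaks.

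By position relative to coding genes, 15 of the 26 IDR peaks were intronic (57.7%, exact 95% binomial interval 36.9 to 76.6%), 11 lay outside coding genes (42.3%, 23.4 to 63.1%) and 0 were in other exons. Of the 15 intronic peaks 9 lay in introns of the 3 Hox genes, and the other 6 in introns of MSAmiP, a coding gene annotated across the interval between abd-A and Abd-B. Over all IDR peaks 38.4% were intronic and 24.9% outside genes. Many of these summits lay in long non-coding RNA genes: 5 in lncRNA:bxd, upstream of Ubx, and 7 in lncRNA:iab8, between abd-A and Abd-B. None lay in lncRNA:iab4, in asRNA:PS4 or in the shared hairpin of mir-iab-4 and mir-iab-8, whose microRNAs repress Hox transcripts. The summit nearest to that hairpin was 865 bp away. When start sites of non-coding genes were counted too, 2 of the 26 were within 500 bp of one, 23 bp from lncRNA:CR44945 and 40 bp from lncRNA:TS16, against 38.8% of all IDR peaks.

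Inside Ubx the 3 peaks had moderate ranks. The one nearest to the 3′ end of the gene (summit chr3R:16661888) had a signal of 256.4 and rank 2778 in the IDR list, and ranks 5639, 2182 and 1952 in replicates 1, 2 and 3. The next one, at chr3R:16703095 and 31.3 kb downstream of the start site, had rank 3319, with ranks 2857 and 4956 in replicates 2 and 3. Replicate 1 had its summit 103 bp away, at rank 3074, just beyond the 100 bp within which summits were counted as the same peak. At chr3R:16718188, 16.2 kb from the start, a weaker peak had rank 4657 and ranks 4456, 6210 and 5041. The start of Ubx lay in a stretch of 30.6 kb with no IDR peak and 8 pooled peaks.

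The interval upstream of Ubx held 9 peaks, the most of any segment, 5 of them in lncRNA:bxd. The strongest, at chr3R:16771798, had a signal of 360.4 and rank 1577, with ranks 1434, 1739 and 3290 in replicates 1, 2 and 3. It lay 1391 bp from the start of lncRNA:bxd, and its interval of 146 bp was narrower than the usual 416 bp. Another, at chr3R:16764194, the window with 6 GAGA matches, had rank 2013 and was steady over replicates, at ranks 2653, 2196 and 1923. That at chr3R:16749900 had rank 2073 and replicate ranks 3641, 1481 and 2233. These 3 stood within the upper 36.1% of the IDR list.

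The other 2 peaks in lncRNA:bxd were near the end of the IDR list. The one at chr3R:16748743 had rank 4962 and a summit within 100 bp only in replicate 3, at rank 2732. Replicate 2 placed a top peak 205 bp away, at rank 4405. The one at chr3R:16769595 had rank 5723, with replicate ranks 5596, 6544 and 8231. A copy of the transposon diver, 6.13 kb long, lies in lncRNA:bxd, and it held 0 summits in all 5 lists.

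Closer to abd-A, 4 further peaks had IDR ranks between 3203 and 3817. The peak 23 bp from the start of lncRNA:CR44945 had rank 3481 and ranks 2474, 4336 and 4051 in replicates 1, 2 and 3. The peak 40 bp from the start of lncRNA:TS16 had rank 3540, but its replicate ranks of 2096, 4210 and 11648 spread widely. The peak at chr3R:16794500 had replicate ranks 2210, 5677 and 5997, and that at chr3R:16798865 was matched in replicates 2 and 3 at ranks 3886 and 1925. Replicate 1 was thus the highest of the 3 for some of these peaks and had no match for another.

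Inside abd-A the peak at chr3R:16819584, 8.52 kb downstream of the nearest start, was the strongest, with a signal of 282.3 and rank 2371. Its ranks of 2836, 2187 and 3231 in replicates 1, 2 and 3 were close to one another. Nearer the 3′ end, the peak at chr3R:16811870, whose window had 4 Pho matches, had rank 2861 and replicate ranks 3105, 2914 and 4061. Between it and the start, the peak at chr3R:16821491 was weak, at rank 5446, and only replicate 2, at rank 5576, had it among its top peaks. Replicates 1 and 3 had it at ranks 8351 and 7367.

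Between abd-A and Abd-B the 8 peaks were spaced over most of the interval, and 7 of them lay in lncRNA:iab8. The strongest, at chr3R:16869435, had a signal of 295.2 and rank 2207, with ranks 2569, 3085 and 1146 in replicates 1, 2 and 3. Nearer to abd-A, the peak at chr3R:16838018 had rank 2417 and replicate ranks 2555, 2099 and 5533. The peak at chr3R:16847404 had rank 3229 and replicate ranks 4303, 2831 and 3507. These 3 were among the top peaks of all replicates, as were the peaks at chr3R:16834861 (rank 3546) and chr3R:16857207 (rank 3926), the one nearest to the microRNA hairpin.

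The remaining 3 peaks of this interval, nearer to Abd-B, were each missing from the top peaks of 1 replicate. Replicate 3 ranked the peak at chr3R:16882686 at 8115 and the peak at chr3R:16907936 at 16889, against IDR ranks of 4291 and 5044. Replicate 2 ranked the peak at chr3R:16924168 at 6401, against an IDR rank of 4232. From that last peak to the first inside Abd-B there was a stretch of 34.1 kb with no IDR peak and 10 pooled peaks.

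Abd-B held the strongest peak of the complex. At chr3R:16958244, in an intron 2.04 kb downstream of an Abd-B start site, the signal was 530.1 and the IDR rank 770. It ranked 436 in replicate 1, 2077 in replicate 2 and 799 in replicate 3, so it was the strongest peak of the complex in replicates 1 and 3. In replicate 2 the strongest was the lncRNA:bxd peak at chr3R:16749900, at rank 1481. A second summit 203 bp away, at chr3R:16958447, had rank 5660 and overlapped the first peak's interval. Replicate 1 ranked it 2018, replicate 2 ranked it 25240 and replicate 3 had no summit within 100 bp, and the spread of its ranks was the widest among the 25 peaks matched in at least 2 replicates. The peak at chr3R:16970002, 1.43 kb from an Abd-B start, had rank 2617 and replicate ranks 4072, 3768 and 1558.

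**Figure D4:**
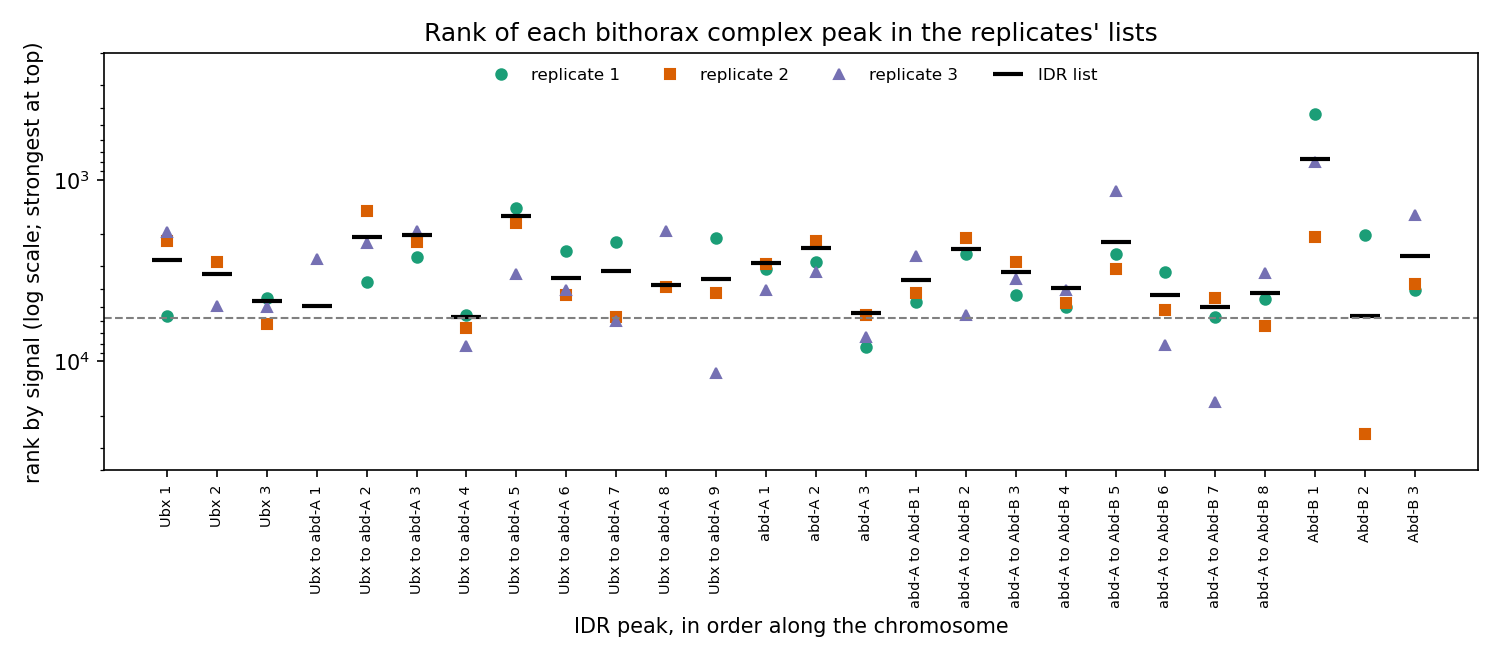
Rank by signal (log axis, strongest at top) of each of the 26 IDR peaks in the IDR list (black bars) and in the list of each replicate (symbols), in chromosome order; a missing symbol means no summit within 100 bp, and the dashed line is rank 5746. The first Abd-B peak is highest at 770, and the second has replicate symbols at 2018 and 25240.

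Of the 26 peaks, 22 had a summit within 100 bp in all 3 full replicate lists (84.6%), 3 in 2 lists and 1 in a single list. Over all IDR peaks 89.4% were in all 3, and the lists share their source, since the IDR list was made from these replicates. Among top peaks 14 of the 26 were in all 3 replicates (53.8%, exact 95% interval 33.4 to 73.4%), against 56.8% of all IDR peaks. The median rank of matched peaks was 3244, 3886 and 3507 in replicates 1, 2 and 3. Across the matched peaks, which share libraries and are neighbours on 1 chromosome, Spearman's rho of signal was 0.30 between replicates 1 and 2 (n = 23 peaks), 0.22 between 1 and 3 (n = 22) and 0.55 between 2 and 3 (n = 24).

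Apart from the Abd-B peak the complex held moderate peaks. The median signal was 226.4, against 308.7 in the Antennapedia complex and 250.3 over all IDR peaks, whose weakest peak had 158.2. Among the 1436 strongest IDR peaks stood 1 of the 26 (3.85%), against 8 of 24 in the Antennapedia complex, where the best rank was 78. The median rank of top peaks was 3105, 3886 and 3278 in replicates 1, 2 and 3 of the bithorax complex, against 1900, 2801 and 2410 in the Antennapedia complex. It was a higher number, meaning weaker, in 3 of 3 replicates, by 1053 ± 171 ranks (SD, n = 3; exact two-sided paired permutation test, p = 0.25, adjusted p = 0.25). The rest of the arms had median ranks of 2872, 2870 and 2872. These were nearly fixed by the cut as well, near the middle of top lists of equal length. Against them the difference was 552 ± 411 ranks (SD, n = 3, the same exact permutation test, p = 0.25, adjusted p = 0.25). Its spread comes almost wholly from the complex.

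Below the IDR list, 116 pooled peaks of the complex remained. The strongest was at chr3R:16843688, between abd-A and Abd-B, at pooled rank 6394. The next were at chr3R:16754887 in lncRNA:bxd (rank 6422), at chr3R:16681682 inside Ubx (rank 6558), at chr3R:16748945 in lncRNA:bxd (rank 6624) and at chr3R:16673394 inside Ubx (rank 6836). Of these 5, all but the one at chr3R:16748945, which was in 2, had a summit in all 3 replicate lists. The stretch of 41.2 kb inside Ubx with no IDR peak held 17 pooled peaks, both of these Ubx peaks among them.

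Sequence at the summits was compared by short words on either strand in windows of 100 bp to either side. The homeodomain core TAATTA was in 5 of the 26 windows (19.2%), against 17.3% of all IDR windows, and the short site TAAT, which it contains, was in 23 (88.5%), against 90.4%. The pair of short sites spaced by 2 bases, TAATNNATTA, was in 2 (7.69%), against 2.58%, and the pair spaced by 3, TAATNNNATTA, was in 0, against 2.91%. Of the paired-domain words, GTCACG was in 0 windows, against 4.70%, and GTTCC in 3 (11.5%), against 19.6%. A count of 0 in 26 allows a share of up to 11.5% by the floor of 3 counts, so the differences at GTCACG and at the pair spaced by 3 were not detectable with 26 windows.

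The Pho core GCCAT was in 14 of the 26 windows (53.8%, exact 95% interval 33.4 to 73.4%), against 27.8% of all IDR windows and 37.5% (9 of 24) in the Antennapedia complex. It was in 2 of 3 windows of the Ubx body, 4 of 9 between Ubx and abd-A, 2 of 3 in abd-A, 5 of 8 between abd-A and Abd-B and 1 of 3 in Abd-B. With 50 bp to either side the share was 38.5% in the complex (exact 95% interval 20.2 to 59.4%), against 33.3% in the Antennapedia complex and 15.6% over all. With 200 bp to either side the share was 65.4% in the complex (exact 95% interval 44.3 to 82.8%), against 79.2% (19 of 24) in the Antennapedia complex and 50.5% over all. At this width the interval includes the share over all IDR windows, and the Antennapedia complex is the higher of the Hox clusters. No interval was adjusted for the number of words and widths compared. With 100 bp to either side the median share of G or C was 40.8% in the complex windows, against 36.3% over all IDR windows. Its part in the Pho result was not tested. The 317.1 kb of the complex as a whole had 41.6% G or C.

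The GAGA core GAGAG was in 8 windows (30.8%), against 23.2% of all IDR windows and 41.7% in the Antennapedia complex. The Hox and Exd word TGATNNAT, a site of Hox proteins with their cofactor Extradenticle, was in 4 (15.4%), against 14.9%, and the Abd-B type word TTTATGG in 2 (7.69%), against 5.66%. The word CAGGTA of the early activator Zelda was in 1 (3.85%), against 3.90%. For each of these the share over all IDR windows lay inside the exact interval of the complex.

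**Figure D5:**
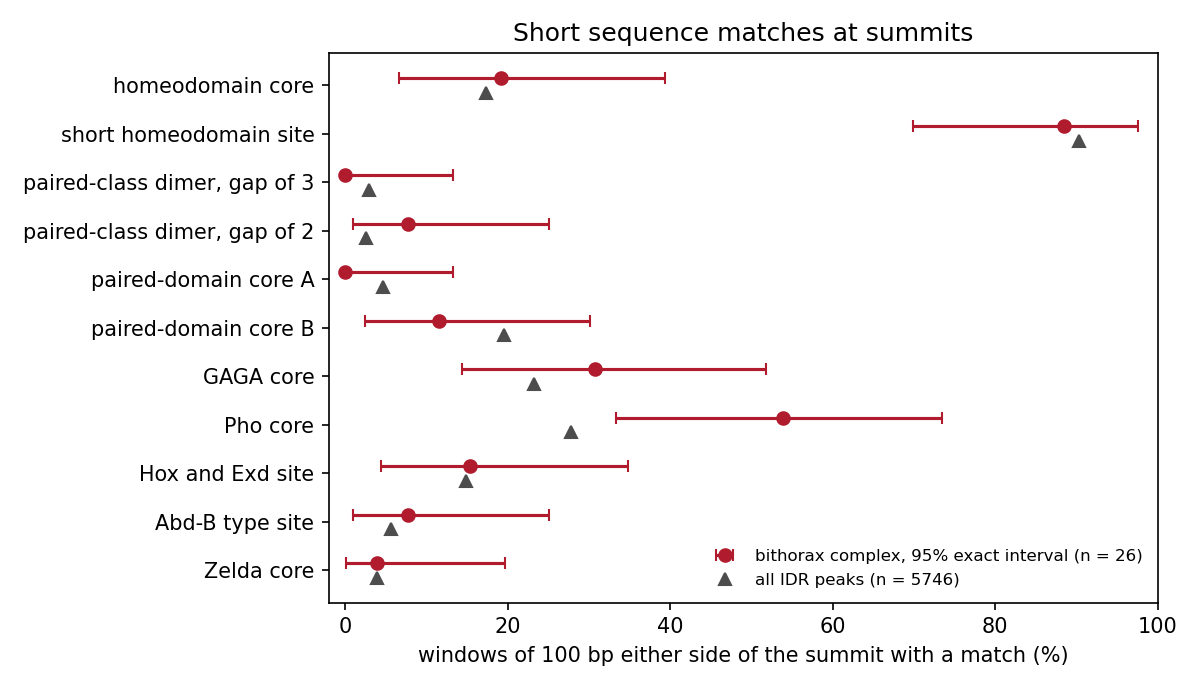
Share of summit windows, 100 bp to either side, with a match to each word (%), for the 26 bithorax complex peaks (red, with exact 95% binomial intervals) and all 5746 IDR peaks (grey triangles); paired-domain core A is GTCACG and core B is GTTCC. At this width the Pho core is the word whose interval, 33.4 to 73.4%, does not reach the share of all peaks, 27.8%, while with 200 bp to either side it does. The intervals are not adjusted for the number of words and widths compared.

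Genes that act with the complex were described by the number nearest to at least 1 IDR peak, beside the 22.6% of all genes. That share takes no account of territory length, and the lists were chosen with earlier results of these data known. The counts are therefore a description and no test of a link to the complex. All 5 genes of the Antennapedia complex were, with 9 peaks at Antp, 3 at Dfd, 3 at lab and 1 at Scr. Of the Hox cofactor genes hth, whose product brings Extradenticle into the nucleus, had 23 peaks and exd, the gene of that partner of Hox proteins on DNA, had 0. The territory of hth was 133.9 kb and that of exd only 2.755 kb, so the 2 counts are not alike in scale. Per 100 kb of territory hth had 17.2 IDR peaks and Antp, with 127.2 kb, had 7.08, against 4.34 over all genes. Among genes known to be controlled by bithorax complex proteins 12 of 13 had a peak, with 7 at the cell death gene rpr, 7 at the POU factor gene vvl and 6 at kn. Antp and Scr are in this list too.

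Regulators of the complex were counted in the same way, beside the same 22.6% of all genes and with the same limits. Of 17 Polycomb group genes, which keep Hox genes silent, 9 had a peak, with 4 at Kdm2, 4 at ph-p, 3 at ph-d and 3 at Psc. Of 11 trithorax group genes, which keep them active, 5 had one, with 5 peaks at trx, 4 at Trl and 4 at osa. A list of 13 segmentation genes held en, a segment polarity gene, besides gap and pair-rule genes, which set the early limits of Hox expression. Of these 13 genes 8 had a peak, with 5 at en, 4 at opa, 3 at eve and 3 at hry. Of 12 genes for insulator and boundary factors, which separate the domains of the complex, 5 had one, with 4 at Trl and 1 each at BEAF-32, CTCF and mod(mdg4).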

How the data were processed

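Gsb-n-GFP binding was measured by ChIP-seq in 3 biological replicates of whole embryos, with chromatin sheared to 200 to 800 bp, per the labels. The authors deposited 5 peak lists on dm6: 1 per replicate from its alignment and 1 control file, 1 from the pooled alignments, and an IDR list made from these, per the deposited notes. The aligner, peak caller and IDR cutoff were not given in the sources used here. For ranks, the deposited signal column (peak height) was used within each list. The −log10 q column the authors deposited was not used for any result, and the summit offset column placed the peaks. The p column holds no p-values. All 5746 IDR peaks are the highest of the pooled list, so the 2 lists are not independent. The depth of the libraries is unknown, and intervals cover counting error only.

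Peaks were assigned to start sites of Ensembl release 115 genes, ties counted for each gene, and sequence came from the RefSeq copy of release 6, the same assembly. Summits within 100 bp were counted as shared. Python 3.11.15, numpy 2.4.6 and scipy 1.17.1 were used, and the counting code was tested on simulated data. No contrast was planned, since there is 1 group; the paired permutation tests over 3 replicates, with Benjamini-Hochberg adjustment over 6, were added later. Older symbols were matched through RefSeq synonyms, and 1 listed name matched no gene. Named genes are the 3 Hox genes, their neighbours, non-coding genes at peaks, the 3 genes most like each, and, from each gene list, at most 4 genes by peak number. Alternatives changed the assignment rule, matching distance, lists, windows and replicates. The members and lists were chosen with earlier results of these data known.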

Additional observations from a re-analysis of the deposited data

How the results depend on the processing

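Of 39 alternatives, 25 left the value near its main one and 14 moved it. The 26 IDR peaks became 13 by nearest coding start site alone, 9 by gene bodies, 7 by nearest start site of any gene, and 10 among IDR peaks above the median signal; 22 to 24 had a match in both lists that remained when a replicate was left out, as the IDR list itself was not remade. The 142 pooled peaks became 62 by nearest start site and 54 by gene bodies. These follow from the narrower rules. The 22 IDR peaks in all full replicate lists became 14 among top peaks. In the full lists with 1 replicate left out, 22 to 24 were matched in both that remained. The 0 peaks at a start site became 2 with non-coding genes. The density ratio of 1.91 was 1.69 in the top peaks of replicate 1 and 1.62 in those of replicate 3, and 1.76 to 1.90 without a replicate; the cause was not tested. By gene body abd-A had 3 peaks in place of 7, as did Ubx in place of 2 and Abd-B in place of 4, so the order of the genes was lost. With 50 bp to either side TAATTA matched 2 windows in place of 5 and GAGAG 5 in place of 8, since these windows are shorter. Counting summits within 250 bp once, an alternative chosen after seeing the data, gave 25 IDR and 127 pooled peaks and a ratio of 1.90. Between groups of samples, no paired analysis was possible because there is only 1 group; the permutation tests paired regions within a replicate. With 200 bp to either side the interval of the Pho core included the share over all IDR peaks, and with 50 bp it did not. Unknown depth and 3 replicates limit all statements.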
